A study of Mus musculus with 33 samples.

Results

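HSF1 is the transcription factor that switches on chaperone genes when proteins misfold. Its binding was compared in wild type cells before heat shock and after 12 min of heat shock. The members are the regions that both HSF1 antibodies found, that is groups of peaks labelled CS and MM of the same time that overlapped by at least 1 bp. There were 121 such regions before heat shock and 1412 at 12 min, which together make 1414 places, since 2 earlier regions had no counterpart at 12 min. They come from 4 of the 15 peak lists of the series and from 4 of its 33 samples. The wild type HSF1 lists of all 3 times together hold 4988 regions.

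The cells were mouse embryonic fibroblasts (MEFs, connective tissue cells grown from embryos) of the strain background 129Sv.BALB/c and wild type genotype, either unstressed or after 12 min of heat shock. Chromatin was precipitated with an antibody sold by Cell Signaling as #4356 (CS) or one given by the Morimoto laboratory (MM), and peaks were called against non-specific IgG of the same time. Each antibody and time has 1 list, made from 2 merged replicates per the file headers, so no replicate error exists and no test compares the times. What CS and MM recognise is not stated in the labels, and the file headers call the experiment an Hsf1 ChIP-seq. The heat shock temperature is not given in the labels. Wild type cells at 60 min and HSF1-/- cells of the same strain background and times, precipitated with the same antibodies, stand beside some results. Knockout peaks were called without a control. The 95% intervals of shares are exact binomial ones (Clopper-Pearson) and describe counting error alone. Peak lists hold no expression values, so the fibroblast label could not be checked against marker genes.

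In unstressed cells most HSF1 is held inactive in the cytosol and nucleus by the chaperones it later induces. Heat frees it to trimerise and to bind heat shock elements, runs of the unit NGAAN in alternating orientation that lie near the starts of chaperone genes. Counted here as 2 adjoining units were GAA, any 2 bases and TTC, or TTC, any 2 bases and GAA. A run of 3 units adds any 2 bases and the next GAA or TTC in turn.

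The sequences below are the longest such runs in the promoter windows of regions that were already present before heat shock (kept regions). They are 5 of the 7 kept regions whose window held the 12 min summit and 3 or more units. They are read 5′ to 3′ from RefSeq promoter windows of GRCm38.p6, the assembly of mm10, on the strand of the gene, and capitals mark the run of units.
Chordc1 (chr9:18292260-18292288, plus strand): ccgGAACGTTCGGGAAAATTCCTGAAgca
Hspe1 (chr1:55088053-55088082, plus strand): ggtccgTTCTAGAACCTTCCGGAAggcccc
Hsph1 (chr5:149636287-149636308, minus strand): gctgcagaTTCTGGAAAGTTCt
Hnrnpa2b1 (chr6:51469863-51469891, minus strand): agtgggggGAAGGTTCTAGAAaagcggcg
Ccnd3 (chr17:47593274-47593302, plus strand): gggcacccTTCCAGAAAGTTCtctctacc

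The next set belongs to regions with no shared region before heat shock (gained regions) and shows 6 of the 13 whose window held 3 or more units.
Kctd18 (chr1:57970205-57970262, minus strand): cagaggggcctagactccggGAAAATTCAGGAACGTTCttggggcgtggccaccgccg
Mettl23 (chr11:116843321-116843349, plus strand): aagtcgccTTCCAGAAGATTCactcctca
Bst2 (chr8:71537606-71537658, minus strand): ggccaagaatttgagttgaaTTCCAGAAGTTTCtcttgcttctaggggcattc
Tra2b (chr16:22266180-22266232, minus strand): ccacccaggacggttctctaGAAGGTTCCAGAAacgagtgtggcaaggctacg
Nr1h2 (chr7:44554071-44554123, minus strand): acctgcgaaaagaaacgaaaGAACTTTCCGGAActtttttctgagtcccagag
Dnajb6 (chr5:29735844-29735872, plus strand): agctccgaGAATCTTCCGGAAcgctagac

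The last set shows gained regions of chaperone and stress genes whose window held at most 2 adjoining units, with the pair nearest the summit in capitals. The stretches of Hspa1a and Hspa1b, near-identical copies of the inducible Hsp70 gene, are the same.
Hspa1b (chr17:34959315-34959362, minus strand): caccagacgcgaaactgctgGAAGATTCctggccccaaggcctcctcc
Hspa1a (chr17:34972233-34972280, minus strand): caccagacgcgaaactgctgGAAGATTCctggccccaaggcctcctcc
Zfand2a (chr5:139484660-139484707, minus strand): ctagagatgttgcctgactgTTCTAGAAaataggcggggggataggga
Hspb1 (chr5:135887782-135887829, plus strand): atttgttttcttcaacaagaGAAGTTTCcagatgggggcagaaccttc
Dnaja4 (chr9:54699458-54699487, plus strand): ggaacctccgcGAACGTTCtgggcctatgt
Cct5 (chr15:31601853-31601900, minus strand): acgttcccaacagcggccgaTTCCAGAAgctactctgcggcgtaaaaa
Bag3 (chr7:128523614-128523632, plus strand): ggatgggaccaGAAGTTTC

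The first comparison asked which places HSF1 held before heat shock and kept. Of the 121 regions, 119 (98.3%, interval 94.2% to 99.8%) overlapped a region at 12 min, where they formed 117 regions because 3 around the start of Hsp90ab1, a cytosolic Hsp90 gene, had merged into 1. The remaining 1295 regions at 12 min (91.7%, interval 90.2% to 93.1%) were gained. With MM peaks alone the kept share was 40.1% (180 of 449 peaks), and it was 12.4% when 50% of both regions had to overlap. No CS peak before heat shock reached a deposited false discovery rate (FDR) of 5% (lowest 39.5%), against 1139 of 1781 CS peaks at 12 min. In MM, 1 of 449 peaks reached it before heat shock and 1226 of 1927 at 12 min. The strict threshold of p at most 1e-10 left 31 regions before heat shock, and 31 of 31 were kept.

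The 2 regions without a 12 min counterpart were weak. One lay inside Nap1l1, which encodes a histone chaperone, with 16 CS and 14 MM tags (chromosome 10, 111496384 to 111496584), and 1643 bp from a gene end. The other lay inside a non-coding gene, 46004 bp from Mvb12b, with 20 CS and 10 MM tags (chromosome 2, 33933902 to 33934060). By CS tags they ranked 121 and 118 among 121 regions. No CS or MM peak lay there at 12 min. The place near Mvb12b had a CS peak of 69 tags again at 60 min, and both places held knockout peaks of 7 to 13 tags at 12 or 60 min. The place near Mvb12b also held a knockout MM peak of 10 tags before heat shock, as many as the wild type MM peak there.

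Most gained regions had no trace of a peak before heat shock. No peak of either antibody lay under 1177 of the 1295 (90.9%, interval 89.2% to 92.4%), a CS-only peak lay under 58 and an MM-only peak under 60. A place with no listed peak may still have held some HSF1: the weakest listed peak before heat shock had 16 CS or 6 MM tags, and lower signal was not listed. The fragment length that the peak caller used was also shorter before heat shock. It was 45 bp in CS and 40 bp in MM, against 128 and 107 bp at 12 min. Its part in the counts of regions at each time and of gained regions cannot be told apart from that of heat shock.

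Peaks that only one antibody found before heat shock were followed as well. Of 59 CS-only peaks, 58 (98.3%, interval 90.9% to 99.96%) lay under a 12 min region, whereas 61 of 328 MM-only peaks did (18.6%, interval 14.5% to 23.2%). The MM-only peaks under a 12 min region held 19 tags at the median and the other 267 held 10. A knockout peak of the same time lay under 17 of those 267 and under 0 of the 61. The part of antibody background in the MM-only peaks was not tested further.

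The places marked by one antibody differed in where they lay. Of the 58 gained regions over a CS-only peak, 5 were at the end of an annotated gene (summit within 1 kb; 8.62%, interval 2.86% to 19.0%), against 30 of 60 over an MM-only peak (50%, interval 36.8% to 63.2%). Their median distances to a protein-coding gene end were 37140 and 4252 bp. Of the regions over no earlier peak, 25.1% were at a gene end (296 of 1177). Gained regions of Dnajb1, Ubqln1, Zfand2a, Hspa4l, Tcp1, Ptges3, Cct6a, Cct8, Bag2 and Ppid lay over MM-only peaks, and no gained region at a listed gene lay over a CS-only peak.

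The next question was whether places held before heat shock were the strongest ones at 12 min. Tag counts were used for this within the 12 min lists only. Kept regions had 86 to 1452 CS tags with a median of 282, and gained regions 22 to 802 with a median of 73. In MM the medians were 157 and 42 tags. Both antibodies therefore placed the kept regions high, although the ranges overlapped widely: 525 gained regions had at least as many CS tags as the weakest kept region.

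**Figure D1:**
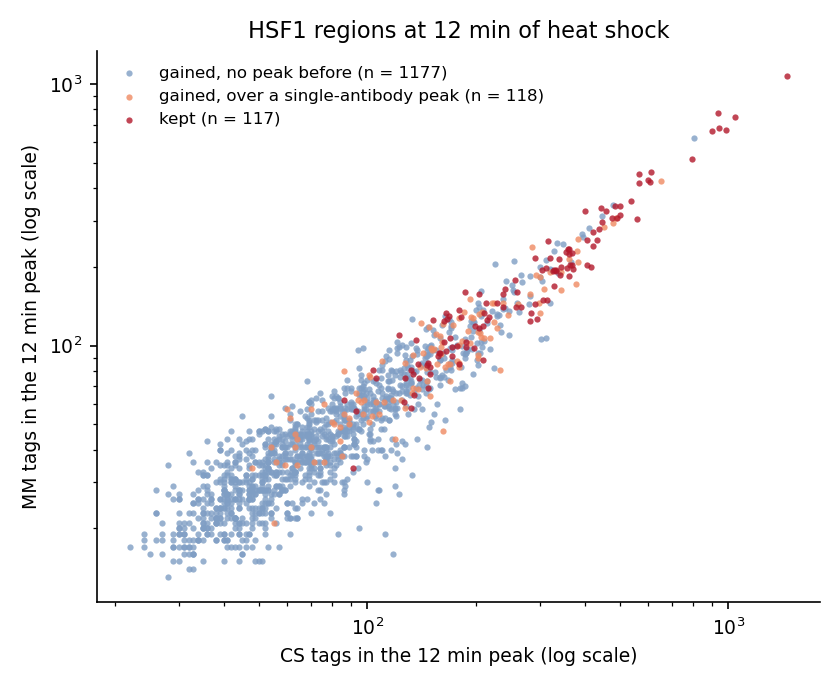
Tags of the CS peak (horizontal, log scale) against tags of the MM peak (vertical, log scale) in each of the 1412 regions at 12 min; each point is 1 region, coloured by its state before heat shock. Kept regions (117) lie from 86 CS tags upward and gained regions over no earlier peak (1177) reach from 22 to 802 CS tags.

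The 12 min list was ordered by CS tags and divided into 10 groups of 141 or 142 regions. The strongest group (218 tags or more) held 67 kept regions, 28 gained over a single-antibody peak and 46 gained over no peak. Groups 2 and 3 held 29 and 16 kept regions, groups 4 and 5 held 2 and 3, and groups 6 to 10 held 0. By MM tags, 71 of the first 141 regions were kept. Kept regions thus made up 47.5% of the strongest group by CS (interval 39.1% to 56.1%), against 8.29% of all 12 min regions.

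**Figure D2:**
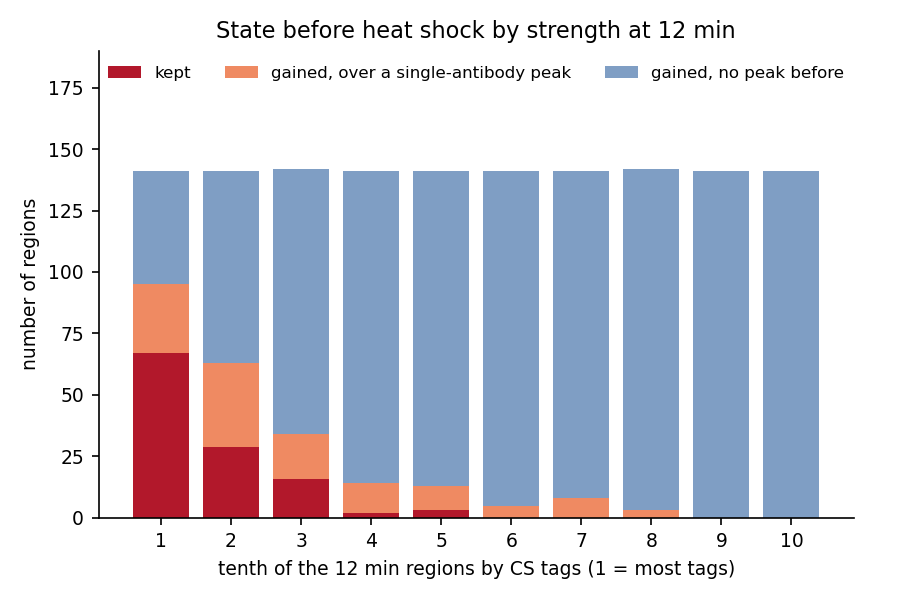
Number of 12 min regions (vertical) in each of the 10 groups ordered by CS tags (horizontal, 1 holds the most tags), stacked by state before heat shock. The kept part shrinks from 67 of 141 regions in group 1 to 0 in groups 6 to 10.

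The strongest gained regions over no earlier peak were few: 22 of 1177 reached the median CS tags of kept regions. The strongest of these was at Hspa1b, with 802 CS and 621 MM tags and rank 7 among the 1412 shared regions by either antibody. Next by mean rank came a region near C87436 (478 CS and 344 MM tags), the region of Hspa1a and Hspa1l (448 and 313), Swt1 with Trmt1l (411 and 282), and regions 14322 bp from Nenf (395 and 261) and 5227 bp from Srrm3 (392 and 267). Bag3, Mrfap1, Chrac1, Slc5a3 with Mrps6, Cacybp, Tmem33, Dnaja4, Ube2d3 and Naa16 also belonged to the 22, as did a region 25229 bp from Col6a2 (366 and 209) and 2 regions inside Myh9, the non-muscle myosin heavy chain gene. Regions near Dipk1b, Amotl2 and Frmd8 completed the 22 together with the one in Zfp335. A knockout peak of 12 min lay under 6 of the 22: Hspa1b, the region near Srrm3, Mrfap1, a region inside Zfp335, Ube2d3 and one of those in Myh9. Over all 1177 gained regions with no earlier peak the count was 45 (3.82%).

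Kept regions were wider at 12 min. Before heat shock the 119 kept regions spanned 236 to 939 bp with a median of 454 bp, and at 12 min the 117 spanned 618 to 2812 bp with a median of 1145 bp. Each of the 117 was wider at 12 min and contained the earlier region, by a median factor of 2.48 (quartiles 2.14 and 3.02). Gained regions had a median of 809 bp. The fragment length that the peak caller used rose as well, from 45 to 128 bp in CS and from 40 to 107 bp in MM, and its part in the widths cannot be told apart from that of heat shock.

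The summits stayed in place. The distance between the summits of the 2 times was 24 bp at the median, and in 112 of 117 kept regions it was at most 100 bp. It was 0 bp at Chordc1 and at Hspe1 with Hspd1, and 182 bp, the longest, at Ubb. The CS and MM summits of a region lay 32 bp apart at the median before heat shock and 13 bp apart at 12 min in kept regions, and 21 bp apart in gained regions.

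**Figure D3:**
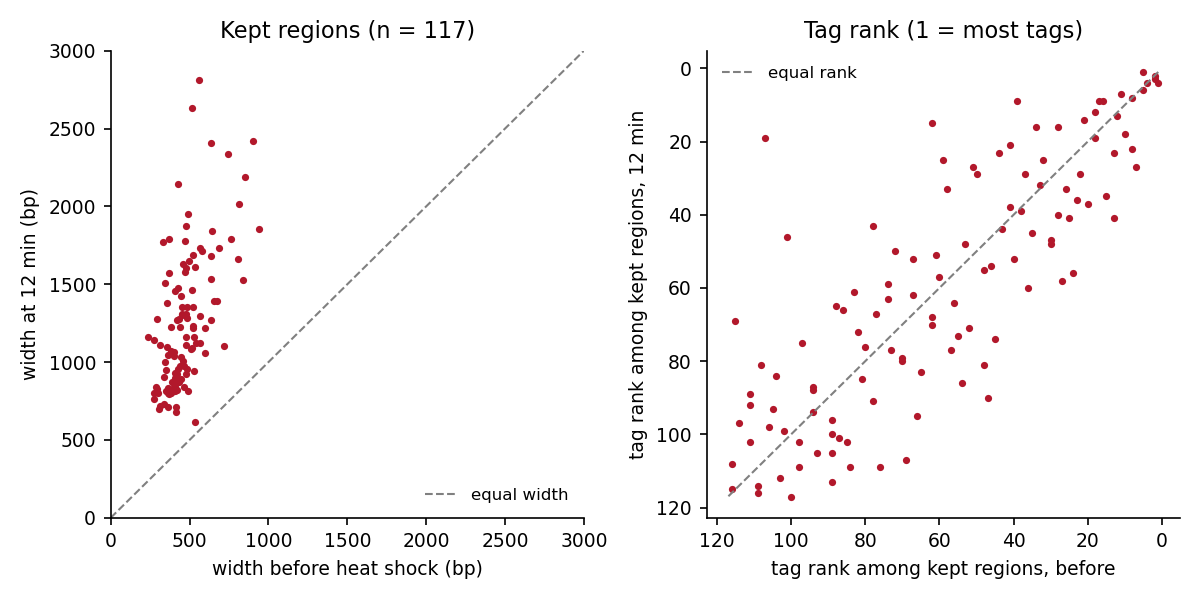
Left, width of each of the 117 kept regions before heat shock (horizontal, bp) against its width at 12 min (vertical, bp); the dashed line marks equal width and each point lies above it. Right, the order of the same regions by CS and MM tags before heat shock (horizontal) and at 12 min (vertical), with rank 1 at the top right; Ahsa1, at rank 107 before and 19 at 12 min, lies farthest above the line.

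Across these 117 regions the Spearman rank correlation between CS tags before and at 12 min was 0.80, and it was 0.73 for MM tags. These are descriptions across places that share antibody, library and sequence, not tests. Ranked by fold enrichment the same correlations were 0.32 and 0.11. Of the first 20 regions before heat shock, 14 were among the first 20 at 12 min.

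St13 with Xpnpep3 led before heat shock. Here and below, tag counts before and at 12 min are not on a common scale, so a pair gives no fold change in binding. St13, an Hsp70 cochaperone, had 439 CS and 305 MM tags before and 944 and 681 at 12 min, ranks 1 and 4. Hspe1 with Hspd1, the mitochondrial co-chaperonin and chaperonin, had 319 CS and 266 MM tags before and 938 and 779 at 12 min. Hspa8, the constitutive Hsp70, had 338 and 255 before and 1045 and 747 at 12 min. These 3 regions and Hsph1, an Hsp110 gene with 214 and 143 tags before and 986 and 666 at 12 min, were the first 4 before heat shock. At 12 min Hsp90ab1 came first among the 1412 shared regions with 1452 CS and 1076 MM tags, after 194 and 140 in the strongest of its 3 earlier regions.

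Dnaja1, a J-domain partner of Hsp70 whose region also touches Aptx, had 199 CS and 135 MM tags before heat shock and 902 and 664 at 12 min. Serpinh1, the collagen chaperone Hsp47, had 152 and 89 before and 491 and 307 at 12 min. Stip1, which bridges Hsp70 and Hsp90, had 130 and 68 before and 792 and 518 at 12 min. The list of the 10 strongest earlier regions at protein-coding gene ends was completed by Trim65 with Mrpl38 (95 CS and 95 MM tags before, 358 and 198 at 12 min) and Abcc5, a membrane transporter gene (109 and 75 before, 438 and 280 at 12 min). Of these 10 regions, 8 were at genes of chaperones or cochaperones.

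A few kept regions moved far in this order. Ahsa1, the activator of the Hsp90 ATPase, climbed from rank 107 to 19 among the 117, with 36 CS and 12 MM tags before and 458 and 327 at 12 min. A region inside Sh3d19 climbed from 101 to 46, Ubb, a polyubiquitin gene, from 62 to 15 and Ints2, an Integrator subunit gene, from 115 to 69. The 4 that fell most lay inside genes, more than 1 kb from an end: Rilpl1 from 47 to 90, Fyb from 69 to 107, Celf2 from 48 to 81 and Stk35 from 76 to 109. The region in Celf2 had 72 CS and 27 MM tags before heat shock and 188 and 103 at 12 min. Tag counts of different times are not on a common scale, so each climb or fall is of order among kept regions only.

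The genes at these regions were then grouped by role. A protein-coding gene was called bound when a region of both antibodies had its summit within 1 kb of either end. A region at the ends of more than 1 gene counted for each of them. Of 21631 such genes, 42 (0.194%) were bound in unstressed cells and 330 (1.53%) at 12 min. The 42 were bound at both times (0.194%), 0 were bound before and not at 12 min (0%), and 288 (1.33%) were newly bound. Against that 1.33%, 26 of 60 cytosolic chaperone and cochaperone genes (43.3%) were newly bound, besides 13 already bound before, and 21 were bound at neither time. Hspa1a and Hspa1l, both among the 26, share 1 region. Some listed genes share a region with a gene outside the lists, among them Dnajb4 with Fubp1, Cct5 with Atpsckmt and Cct6a with Psph. The same holds for Tcp1 with Mrpl18, Jund with Iqcn, Hsp90b1 with Ttc41 and Myl12a with Myom1.

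Outside the gene lists, the genes kept from before heat shock included the RNA-binding protein gene Hnrnpa2b1 with its neighbour Cbx3, Mat2a, which makes S-adenosylmethionine, Rangap1 of nuclear transport and the dynein light chain gene Dynll1. The regions of Mat2a and Rangap1 overlapped knockout peaks at 12 min. Also kept were Ddx23, Rsrp1, Azi2, Acot7, Adgra3, Ccdc117, Slc35e2, Uspl1, Zcwpw2 and Ears2 with Ubfd1. The Hnrnpa2b1 region had 71 CS and 54 MM tags before heat shock and 557 and 306 at 12 min, and it widened from 513 to 2631 bp.

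Among the Hsp70 and Hsp110 genes, Hspa8 and Hsph1 were kept and 5 of 9 were newly bound: Hspa1a, Hspa1b, Hspa1l, Hspa4 and Hspa4l. Hspa4l had 380 CS and 230 MM tags at 12 min, and Hspa4 123 and 76. Reads of Hspa1a and Hspa1b may be split between the copies, and the sources used here do not state how such reads were placed. Hspa2 and Hspa14 were not bound at 12 min.

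Of the 17 genes of Hsp90 and its cochaperones, 7 were kept (Hsp90aa1, Hsp90ab1, Stip1, St13, Fkbp4, Ahsa1 and Chordc1) and 4 were newly bound: Ptges3, the p23 cochaperone, with 343 CS and 192 MM tags at 12 min, Cacybp (338 and 189), Ahsa2 (237 and 138) and Ppid (127 and 86). Ppid overlapped a knockout peak of that time. Hsp90aa1, the inducible cytosolic Hsp90 gene, had 87 CS and 80 MM tags before heat shock and 567 and 454 at 12 min. Chordc1 had 84 and 64 before and 565 and 420 at 12 min. The group was the one with the most kept genes, and Fkbp5, Cdc37, Unc45a, Ppp5c, Aarsd1 and Sugt1 were not bound at 12 min.

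J-domain proteins hand substrates to Hsp70. Of 11 listed genes, Dnaja1 was kept and Dnajb1, Dnaja4, Dnajb2, Dnajb4, Dnajb5 and Dnajb6 were newly bound. Dnajb1, a partner of the inducible Hsp70, had the strongest of these regions with 651 CS and 427 MM tags (ranks 9 and 12 of 1412), over an MM-only peak before heat shock and a knockout peak at 12 min. Dnaja4 had 283 and 184 tags, and Dnajb2, Dnajb6, Dnajb4 and Dnajb5 had 98 to 120 CS tags. The region counted for Dnajb4 (103 CS and 40 MM tags) is the one shared with Fubp1. A separate gained region with 104 and 60 tags had its summit in a Dnajb4 promoter window. It was not within 1 kb of either annotated end of the gene.

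No gene in the list of small heat shock proteins or in that of Hsp70 exchange factors and regulators was bound before heat shock. The latter list holds Bag genes, Hspbp1 and Stub1, and the kept Hsp110 gene Hsph1 was counted elsewhere. Newly bound were Hspb1, which encodes Hsp27 (159 CS and 88 MM tags), Hspb8 (164 and 130) and Hspb2 (95 and 48), whose region lies inside the annotated span of Cryab. Cryab itself counted as not bound, since that region was more than 1 kb from its annotated ends. Bag3, an exchange factor in the clearance of misfolded proteins, had 349 CS and 244 MM tags, Bag2 150 and 98, and Hspbp1 105 and 58. These made 3 of 7 and 3 of 8 genes.

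Actin and tubulin are folded by the TRiC/CCT chaperonin, and each of its 8 listed subunit genes was bound at 12 min. Cct3, Cct4 and Cct7 were kept, while Tcp1, Cct2, Cct5, Cct6a and Cct8 were newly bound with 145 to 384 CS tags. The region of Cct7 is shared with Pradc1, the nearer gene (37 bp from the summit). It had 60 CS and 53 MM tags before and 597 and 429 at 12 min. Of the prefoldin genes, which pass substrates to this chaperonin, 0 of 6 were bound. The mitochondrial Hsp70 gene Hspa9 was newly bound (171 CS and 117 MM tags), beside the kept Hspd1 and Hspe1, and the other 7 of 10 genes of that list were not bound.

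In the list for folding in the endoplasmic reticulum, Serpinh1 was kept and 3 of 18 genes were newly bound: Hsp90b1, the Hsp90 of that compartment (201 CS and 102 MM tags), Canx (132 and 72) and Pdia3 (115 and 96). Hspa5, its Hsp70, had no region within 1 kb of an end, and the nearest 12 min region was 177826 bp away. Of the ubiquitin and clearance list, Ubb was kept and 4 of 15 genes were newly bound, among them Zfand2a, a proteasome-associated stress gene (488 CS and 307 MM tags), Ubqln1 (479 and 295) and Zfand1 (54 and 54).

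In the list of AP-1 and early stress genes, 3 of 20 were newly bound: Jun (183 CS and 100 MM tags), Ccn1 (136 and 98) and Jund (69 and 52). All 3 of these regions overlapped a knockout peak at 12 min. The Jund region lay outside the annotated span of the gene, 56 bp from it. Atf3 had no region at its ends, and a gained region with 363 CS and 214 MM tags lay 41058 bp from it. Of the actin cytoskeleton list 4 of 25 genes were newly bound: Wdr1 (247 and 110), Cald1 (186 and 70), Myl12a (121 and 103) and Flnc (119 and 34), the last over a knockout peak. At neither time was a region found at the ends of the 12 redox and metal stress genes, the 4 genes of heat shock factors and their regulator, or the 14 marker genes of liver, blood, epithelial, endothelial, muscle and neural cells. The nearest 12 min region lay 2047 bp from Hsf2.

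Other strong gained regions at gene ends belonged to Ube2g2, a ubiquitin-conjugating enzyme gene (453 CS and 285 MM tags), P4ha1, a collagen prolyl hydroxylase gene (384 and 256), Swt1 with Trmt1l, and Mrfap1 (335 and 247). Ube2g2 and P4ha1 lay over MM-only peaks of before, Swt1 and Mrfap1 over none. The 3 weakest gained regions had 22 to 28 CS and 13 to 17 MM tags and lay inside Ppp3ca, 3697 bp from Dennd1b and 57353 bp from Dnajc5b. The first 2 of these were found again at 60 min and the last was not.

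The position of kept and gained regions relative to genes was compared next. At 12 min 41 of 117 kept regions (35.04%, interval 26.5% to 44.4%) and 331 of 1295 gained regions (25.6%, interval 23.2% to 28.03%) were at the end of an annotated gene. Kept regions lay inside genes in 33.3% and between genes in 31.6%, and gained regions in 43.2% and 31.3%. The intervals at gene ends overlap, and the shares were 26.3% and 24.7% with CS peaks alone. Strength and position also moved together, as kept regions at gene ends had a median of 417 CS tags and those inside genes 188. Among regions with CS tags within the quartiles of the kept regions (168 to 401 tags), kept regions had the lower share: 15 of 59 kept regions (25.4%, interval 15.0% to 38.4%) and 65 of 145 gained regions (44.8%, interval 36.6% to 53.3%) were at a gene end, with intervals that overlap. In that band kept regions were also narrower (median 1111 against 1361 bp) with a higher CS fold enrichment (median 90.6 against 49.3).

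Transcript starts were taken from the RefSeq promoter windows, which hold no gene of chromosome 18. Within 1 kb of a start lay 27 of 116 kept summits (23.3%) and 265 of 1264 gained summits (21.0%). Kept summits sat closer: 23 of 27 (85.2%, interval 66.3% to 95.8%) were within 250 bp of the start, against 140 of 265 (52.8%, interval 46.6% to 59.0%) of the gained. In the tag band above these were 9 of 11 and 32 of 54 (81.8% and 59.3%), with overlapping intervals (48.2% to 97.7% and 45.03% to 72.4%). Upstream of the start lay 13 of 27 kept (48.1%) and 128 of 265 gained summits (48.3%).

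**Figure D4:**
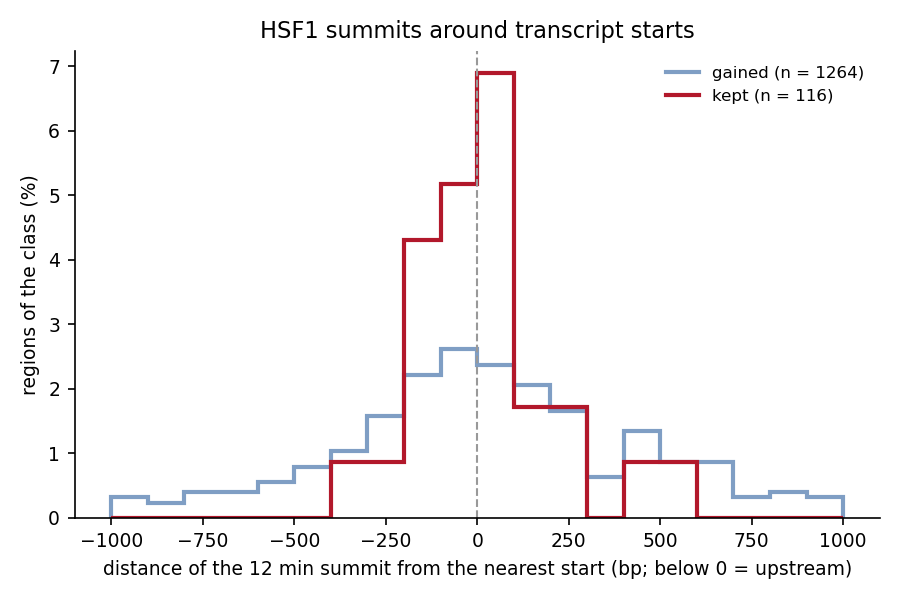
Distance of the 12 min summit from the nearest transcript start (horizontal, bp, negative values upstream) for kept and gained regions, in bins of 100 bp. The vertical axis is the share (%) of the 116 kept and 1264 gained regions outside chromosome 18, which has no promoter windows. Of the summits within 1 kb, 23 of 27 kept and 140 of 265 gained lie within 250 bp of the start.

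The letters of the heat shock element were counted in promoter windows of 300 bases (250 before and 50 after the start) that held a 12 min summit. All motifs were searched on both strands and matches may overlap. Where several windows held the summit of a region, the window with the most units was taken, whereas all promoter windows were counted singly. Of 16 kept regions with such a window, 7 held 3 or more adjoining units (43.8%, interval 19.8% to 70.1%), against 13 of 89 gained regions (14.6%, interval 8.01% to 23.7%) and 198 of all 32851 promoter windows (0.603%). At least 2 units were present in 12 of 16 kept (75%), 63 of 89 gained (70.8%) and 15.1% of all windows. The intervals of kept and gained regions overlap for both motifs. In the band of 168 to 401 CS tags, 2 of 6 kept and 5 of 20 gained windows held 3 units.

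**Figure D5:**
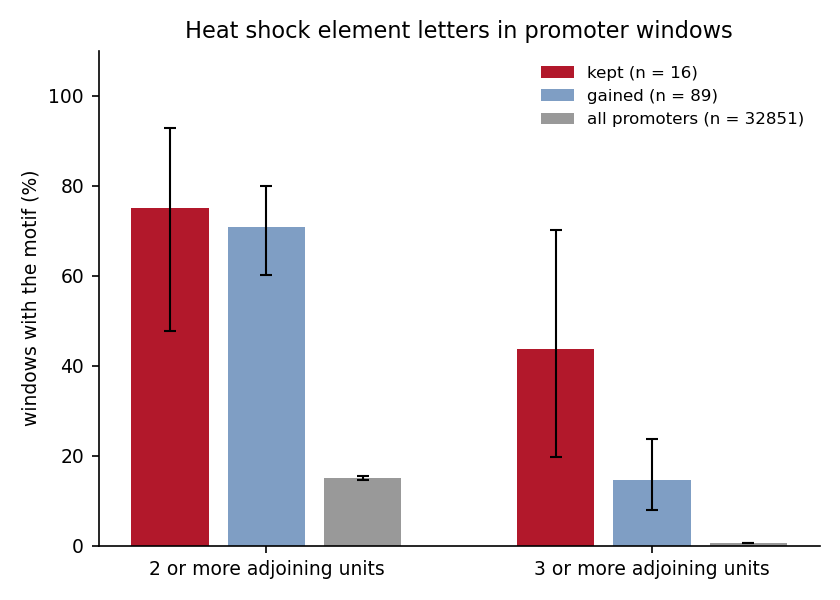
Share (vertical, %) with at least 2 or at least 3 adjoining heat shock element units. Kept and gained regions with a summit in a promoter window are counted by region, from the window with the most units. All RefSeq promoter windows are counted singly. Bars start at 0 and lines are 95% exact binomial intervals. At 3 units the bars stand at 43.8%, 14.6% and 0.603%.

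The runs lay under the summits. With 3 or more units, the distance from the summit to the middle of the run was 13 bp at the median in the 7 kept windows (1 to 175 bp) and 11.5 bp in the 13 gained windows (3 to 32 bp). Chordc1 had the longest run among the sequences shown, 5 units spanning the start, 1 bp from its summit. Hspe1 followed with 4 units, 18.5 bp from the summit of the region it shares with Hspd1, and Kctd18 was the only gained region with 4 units. The Kctd18 region had 222 CS and 146 MM tags. The longest distance, 175 bp, belonged to the window of Gm6297 in the region of Dnaja1.

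Strong gained regions did not all hold long runs in these windows. Hspa1b and Hspa1a had at most 2 adjoining units there, and the nearest pair lay 95.5 and 52.5 bp from the summit. In Zfand2a, Hspb1, Dnaja4, Cct5 and Bag3 a pair lay 1.5 to 9.5 bp from the summit, as the third set of sequences shows. By contrast Dnajb6, with 117 CS and 68 MM tags, had 3 units 14 bp from its summit. The windows reach from 250 bases before the start to 50 after it, and letters beyond either edge were not searched. The Bag3 pair lay at the edge past the start, so whether its run goes on beyond the window is not known. The same holds for the run of 3 units in the kept region of Hsph1.

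By gene, 5 of the 31 kept genes with a promoter window held 3 or more units in a window (16.1%, interval 5.45% to 33.7%), as did 13 of 239 newly bound genes (5.44%, interval 2.93% to 9.12%) and 86 of 17004 genes bound at neither time (0.506%). These shares count each window of a gene, whether or not a summit lay in it. Hspe1 and Hspd1, both among the 5, share 1 region and each had 4 units, so genes here are not independent counts.

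The regions were last followed to 60 min, when 117 of 117 kept regions (interval 96.9% to 100%) and 1124 of 1295 gained regions (86.8%, interval 84.8% to 88.6%) overlapped a region of both antibodies. Among gained regions these were 58 of 58 over a CS-only peak, 58 of 60 over an MM-only peak and 1008 of 1177 over no earlier peak (85.6%). Knockout peaks of 12 min lay under 6 of 117 kept regions (5.13%, interval 1.90% to 10.8%) and 50 of 1295 gained regions (3.86%, interval 2.88% to 5.06%). Those knockout peaks held 5 tags at the median and 16 at most. Before heat shock a knockout peak of that time lay under 12 of the 121 regions (9.92%, interval 5.23% to 16.7%).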

How the data were processed

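The 4 wild type HSF1 peak lists before heat shock and at 12 min were analysed, with the 60 min and HSF1 knockout lists beside them. Per the file headers, the authors used MACS 1.4.2 to call peaks (p cutoff 1e-04), with 1 tag kept per position, against IgG of the same time (no control in the knockout). Per the labels the build is mm10; no source used here names an aligner. As deposited, each peak has a tag count, a score of minus 10 times the log10 p-value, a fold enrichment (a ratio), an FDR in percent and a width in bp. Tags after filtering were 25198939 (CS) and 15927636 (MM) before heat shock, 26301665 and 17741564 at 12 min, and 10070777 and 12290536 in IgG of the 2 times.

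Regions were joined, ranked and placed in Python 3.11.15, with intervals from scipy 1.17.1. For each antibody, a region took the tags, fold and summit of its peak with the most tags, and its own summit is the midpoint of both. Genes came from the GRCm38.p6 table (21631 protein-coding), which gives no strand, so both ends were used. Heat shock elements were searched in RefSeq promoter windows in place of the planned windows around summits, since no genome was used here. The code was tested on simulated data with planted regions and motifs. Named genes were, by rule, the strongest 10 kept and 12 gained regions at protein-coding gene ends, 5 gained elsewhere, each lost region, bound list members, the largest rank shifts and the 3 weakest gained regions; other genes, among them the 22 strongest gained regions over no earlier peak and the other kept genes, were named after their values were seen. The members and the 15 lists (184 genes) were chosen with earlier results of these data known. Alternatives were a stricter p, a single antibody, removal of knockout peaks, a 50% overlap, other distances and motif settings. SRF, PRO-seq, IgG and input samples were not used here. The values of 1 bound list member are not reported here.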

Additional observations from a re-analysis of the deposited data

How the results depend on the processing

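Of 71 values recomputed under another setting, 51 stayed within the interval of the reported share, within 1.5 times a count or factor, or within 0.1 of a correlation, and 20 did not. With p of 1e-10 or less, 100% of 31 earlier regions were kept, 616 regions were gained, 160 genes were newly bound and gene-end shares were 50% (kept) and 29.1% (gained). That setting leaves fewer peaks by construction. With CS alone the gene-end share of kept regions was 26.3%, and with MM alone 40.1% of earlier peaks were kept. When 50% of both regions had to overlap, 12.4% were kept, with a rank correlation of 0.91, a gene-end share of 13.3% (2 of 15) and a motif share of 100% (1 of 1), as regions were wider at 12 min. At 500 bp the gene-end share of gained regions was 18.8%. At 5 kb the shares were 53.0% and 48.03% and 529 genes were newly bound. With transcript starts in place of gene ends, an alternative added after seeing the data, they were 23.1% and 20.5%. With 2 units the motif shares were 75% and 70.8%, and ranked by fold the correlation was 0.32. The count of newly bound chaperone genes stayed between 18 (MM alone) and 27 (5 kb), against 26. Requiring an FDR of 5% at 12 min left 873 gained regions. No paired analysis was possible because each antibody and time has 1 list.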
